A study of Homo sapiens with 6 samples.

Results

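Genes of mitotic entry, the kinetochore and the spindle were followed in NCI-H1299, a human cell line of lung cancer (lung adenocarcinoma in the labels). The 54 genes were listed by name for their known work in G2 phase and mitosis. The rule itself uses no measured value, but the list was chosen with earlier results of these data known. All 54 had a row among the 28495 genes of the deposited table. Of these, 52 passed a filter of a mean FPKM (a level scaled to gene length and library size) of at least 0.5 over the 6 libraries, and 2 did not. In 3 libraries, called sh-CFB, the gene of complement factor B (CFB) had been silenced according to the labels, and 3 libraries of control cells are called sh-NC. The titles point to short hairpins and the column names to siRNA, which leaves the reagent unsettled, and no other treatment, time point or selection step is given. Replicates are not said to come from separate cultures, and the p-values below therefore reflect the spread among these libraries alone, which may be technical.

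A cell enters mitosis when cyclin B bound to the kinase CDK1 is switched on by CDC25 phosphatases, with help from the kinases PLK1 and Aurora A. Chromosomes are compacted by condensin, attached to microtubules through kinetochores, and moved by kinesin motors, while a checkpoint holds the ubiquitin ligase that starts anaphase until every kinetochore is attached. Most of these genes are transcribed in late S phase, G2 and mitosis, under B-MYB, FOXM1 and the DREAM repressor, which act through a short promoter element called the cell cycle homology region. CCAAT boxes also stand in many promoters of these genes. In a bulk culture their mRNA level therefore depends on the share of cells in G2 and mitosis as well as on the mRNA in each such cell, and the libraries cannot tell these apart.

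Promoters are shown because these genes are known to be driven together. RefSeq promoters (GRCh38.p14, 250 bases before to 50 after the first listed start, 300 bases in all) were at hand for 47 of the 54 genes. Those of CCNB1 (cyclin B1) and CDK1, the pair that forms the mitotic kinase, stand beside those of SPC25 and CDCA8, the called genes (see the test below) with the lowest and the highest fold change among those that had an entry. CCNB1 lies on the forward strand at chr5:69166900-69167199, CDK1 on the forward strand at chr10:60778081-60778380 (the first of 2 listed starts), SPC25 on the reverse strand at chr2:168890381-168890680 and CDCA8 on the forward strand at chr1:37692266-37692565. Each is written 5′ to 3′ along its gene. Capitals mark TTTGAA, a form of the cell cycle homology region, and CCAAT, each searched on both strands, so that ATTGG is CCAAT read on the other strand.
CCNB1: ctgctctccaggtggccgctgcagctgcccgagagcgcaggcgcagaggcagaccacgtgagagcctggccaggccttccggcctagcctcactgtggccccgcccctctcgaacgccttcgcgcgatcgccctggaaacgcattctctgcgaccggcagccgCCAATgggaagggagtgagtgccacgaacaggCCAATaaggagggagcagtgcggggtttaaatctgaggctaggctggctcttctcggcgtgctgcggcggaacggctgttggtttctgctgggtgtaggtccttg
CDK1: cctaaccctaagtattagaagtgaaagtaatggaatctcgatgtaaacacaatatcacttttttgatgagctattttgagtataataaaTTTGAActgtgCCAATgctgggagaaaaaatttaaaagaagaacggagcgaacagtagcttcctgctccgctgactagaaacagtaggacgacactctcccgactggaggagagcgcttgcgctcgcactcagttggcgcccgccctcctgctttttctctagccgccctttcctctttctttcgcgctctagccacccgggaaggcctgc
SPC25: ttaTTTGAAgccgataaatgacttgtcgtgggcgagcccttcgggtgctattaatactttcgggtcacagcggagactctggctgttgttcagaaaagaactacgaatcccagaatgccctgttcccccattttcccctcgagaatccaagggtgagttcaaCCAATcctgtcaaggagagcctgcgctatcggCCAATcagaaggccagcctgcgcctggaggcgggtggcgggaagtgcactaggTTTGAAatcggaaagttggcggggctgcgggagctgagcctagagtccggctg
CDCA8: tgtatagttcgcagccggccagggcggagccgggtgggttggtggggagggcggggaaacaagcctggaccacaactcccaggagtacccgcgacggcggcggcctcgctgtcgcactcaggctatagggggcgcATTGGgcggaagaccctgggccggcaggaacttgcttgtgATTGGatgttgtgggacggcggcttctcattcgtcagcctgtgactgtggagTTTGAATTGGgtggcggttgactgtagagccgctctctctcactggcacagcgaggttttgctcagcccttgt

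TTTGAA was found in 33 of the 47 promoters (70.2%), against 8.7% of the 9026 promoters of tested genes and 15.4% of all 27305 promoters of that length. CCAAT was also found in 33 (70.2%), against 36.7% and 35.7%. Both motifs stood in 25 promoters (53.2%), against 3.8% and 6.1%. In CDCA8 the TTTGAA and a reverse CCAAT overlap by their shared bases. TTTGAA was found in the windows of CDC20, PLK1, MKI67, TOP2A, NDC80 and CENPA among others, and not in those of CCNB1, CCNA2, CDC25C, KIF20A, KIF2C, TACC3 or NCAPH, which says only that these letters are not in this window. Among the genes that passed the test below, 8 of 14 with an entry held TTTGAA and 10 held CCAAT, and among tested genes that did not pass, 23 of 31 and 21 did. AURKA, BIRC5, BUB3, FOXM1, TPX2, TTK and UBE2C were not matched to an entry.

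Depth was recovered from the steps between low FPKM values, with sh-CFB replicate 1 the shallowest library (26230379 reads) and sh-NC replicate 2 the deepest (40031649 reads). CFB itself was near undetected, with 0, 0 and 2 reads in sh-CFB, against 1, 6 and 5 in sh-NC (two-sided exact permutation p = 0.2 on FPKM), which is too little to check the labels. The keratins KRT8 and KRT18 were well expressed (31.8 to 207 FPKM), but KRT7 was at 1.21 to 1.79 FPKM and KRT19 at or under 0.218. The epithelial markers EPCAM and CDH1 were at or under 0.125 FPKM. The 6 markers of lung adenocarcinoma lineage were at or under 0.339, with SFTPB, SFTPC, SFTPA1 and SFTPD at or near 0. Markers of immune cells (4 of 6 with a row), fibroblasts (3 of 5), endothelial cells (5 of 5) and erythroid cells (1 of 4) reached at most 0.143 FPKM in any library. Libraries also differed by GC content: across all tested genes, the Spearman correlation of GC content with a library's deviation from the gene mean was 0.595 in sh-CFB replicate 1, -0.555 in sh-NC replicate 1 and 0.234 in sh-NC replicate 3. Results are therefore also given after a correction for GC content and transcript length, and without replicate 1 of both groups.

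Mitotic genes were lower in sh-CFB as a group, but with large differences between members. Of the 52 tested genes, 18 fell, 0 rose and 34 did not pass (limma on log2(FPKM + 0.5), Benjamini-Hochberg adjusted p under 0.05 over all 12466 tested genes). Over all tested genes 5.71% fell and 1.74% rose. At an unadjusted p under 0.05, 27 of the 52 were lower and 0 were higher. No share of all tested genes is given at this threshold, here or further below, so such counts lack a background. In 28 of the 52 every sh-CFB library lay below every sh-NC library, against 23.6% of all tested genes, and in 1 (UBE2C) every sh-CFB library lay above, against 10.0%. The median log2 fold change of the 52 was -0.51, while the median of all tested genes was -0.15. Relative to that median the difference was -0.37, and it was -0.30 after the GC and length correction, -0.39 without replicate 1 and -0.36 with median-of-ratios factors, which moved the median tested gene to 0.02. After the correction 17 fell, 13 of them among the 18, against 7.14% of all genes. Without replicate 1 of both groups 15 fell, 14 of them among the 18, against 4.25%.

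**Figure D1:**
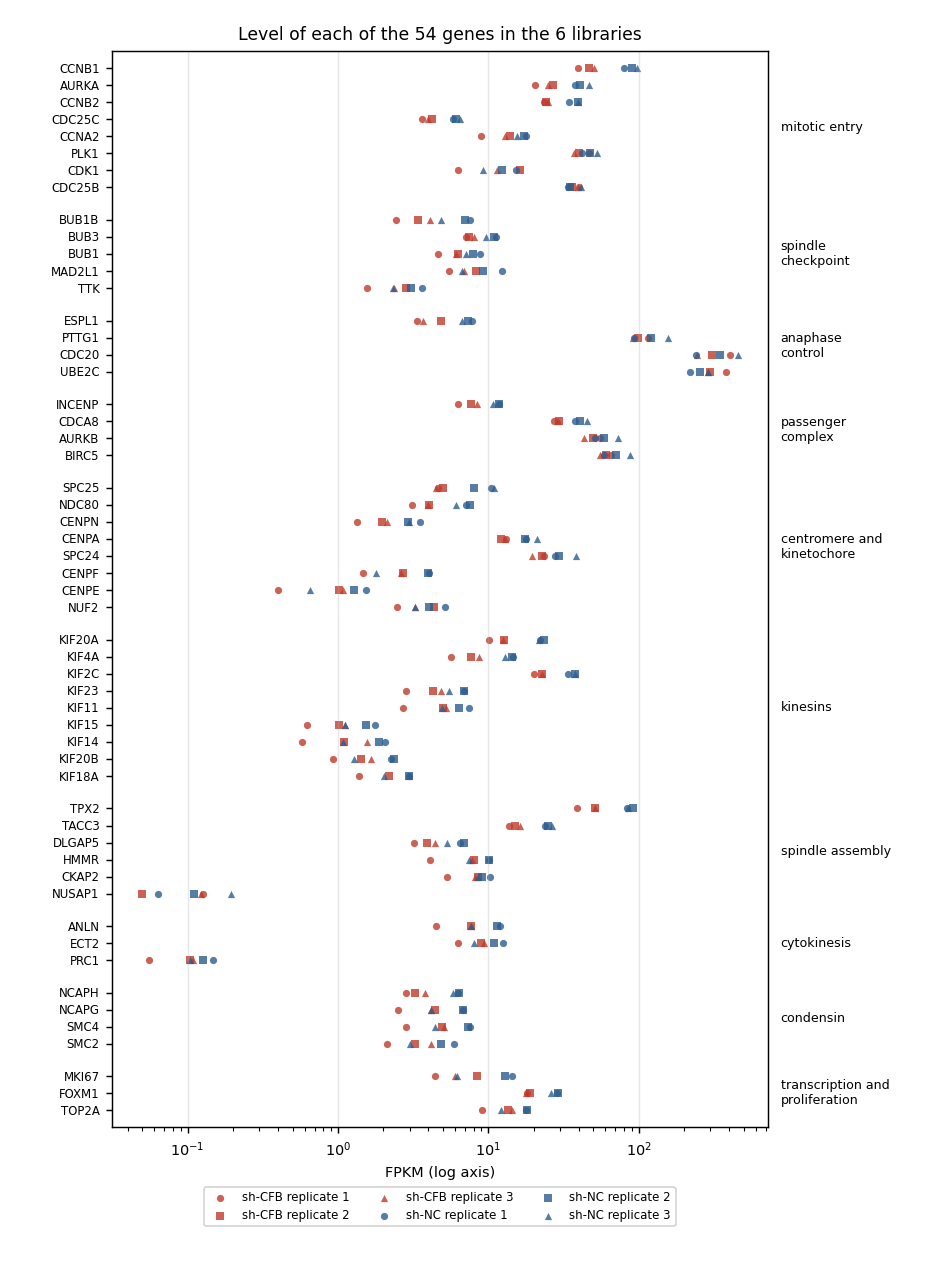
FPKM of each of the 54 genes (rows, by role) on a log axis, with 1 point per library, red for sh-CFB and blue for sh-NC, and circles, squares and triangles for replicates 1, 2 and 3. CCNB1, TPX2 and KIF20A show red and blue points apart, CDC20 and CDK1 show them mixed, and NUSAP1 and PRC1 lie far to the left of the other genes, under 0.2 FPKM.

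The calls rested on particular libraries. Without sh-CFB replicate 2, or without sh-NC replicate 2, limma called 0 members, with 28 and 23 at an unadjusted p under 0.05 on the lower side and smallest adjusted p of 0.0554 and 0.0647. In those fits 41 and 20 genes were called over the whole table. The member median was -0.58 and -0.49, against -0.51 in the main fit, and 50 of the 52 members lay below 0 in each. Without sh-CFB replicate 3 or sh-NC replicate 1 the count was 11 and 9. With median-of-ratios factors the member count was 4 (KIF20A, KIF4A, NDC80 and NCAPH), and with voom on recovered reads 8. Those settings called 138 and 279 genes lower over the whole table. All 18 called genes lay below 0 in each of the 20 other settings. The settings reuse the same libraries, so this is no independent support. The 11 genes called by the main test, after the GC and length correction and without replicate 1 were CCNB1, AURKA, SPC25, NDC80, KIF20A, KIF4A, KIF2C, TPX2, TACC3, NCAPH and FOXM1.

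The B-type cyclins fell, while the kinase they bind did not pass, and whether their changes differ was not tested. CCNB1 (chr5:69167010-69178245, GRCh38 in GENCODE 29, forward strand) encodes cyclin B1, the activating subunit of CDK1. It was at 39.5, 47.0 and 50.6 FPKM in sh-CFB replicates 1, 2 and 3 and at 80.1, 90.9 and 97.8 in sh-NC. Every sh-CFB library was well below every sh-NC library, with means of 45.7 ± 5.62 and 89.6 ± 8.92 (SD, n = 3 per group). The log2 fold change was -0.97 (SE 0.12, limma adjusted p = 0.0111), 1.95-fold lower, and -0.72 after the GC and length correction (adjusted p = 0.0152). CCNB2, the other mitotic B-type cyclin, fell by 0.63 on the log2 scale (adjusted p = 0.0137), with -0.35 (adjusted p = 0.111) after the correction. CCNA2, cyclin A2 of S phase and G2, had a difference of -0.50 that did not pass (adjusted p = 0.11), although its groups did not overlap.

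CDK1, the mitotic kinase itself (chr10:60778331-60794852, forward strand), was at 6.29, 16.2 and 11.5 FPKM in sh-CFB, against 15.3, 12.3 and 9.24 in sh-NC. The groups overlapped fully, with the lowest and the highest library both in sh-CFB. Its log2 difference of -0.18 (SE 0.32, adjusted p = 0.77) became 0.34 (adjusted p = 0.324) without replicate 1 and 0.015 with median-of-ratios factors. CDC25C, a phosphatase that activates CDK1, fell by 0.58 (adjusted p = 0.0374) from 6.13 ± 0.367 to 3.94 ± 0.317 FPKM (SD, n = 3 per group), and stood at -0.30 (adjusted p = 0.0721) after the correction and -0.56 (adjusted p = 0.0506) without replicate 1. CDC25B, which starts the activation of cyclin B with CDK1, was at 39.9, 36.2 and 39.4 FPKM in sh-CFB, against 34.0, 35.1 and 41.3 in sh-NC, a difference of 0.07 (SE 0.11, adjusted p = 0.736). Its libraries were interleaved between the groups, and without replicate 1 the difference was -0.01.

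AURKA, Aurora A of the spindle poles (chr20:56369389-56392337, reverse strand), fell from 41.7 ± 4.43 to 24.0 ± 3.35 FPKM (SD, n = 3 per group), a log2 change of -0.79 (SE 0.13, adjusted p = 0.0171). PLK1, which acts at centrosomes, kinetochores and the midzone (chr16:23677656-23690367, forward strand), was at 46.8, 40.0 and 37.1 FPKM in sh-CFB, against 41.8, 47.7 and 53.0 in sh-NC. Its groups overlapped, because sh-CFB replicate 1 lay above sh-NC replicate 1. The difference was -0.20 (SE 0.13, adjusted p = 0.37), 0.0047 with median-of-ratios factors and -0.38 without replicate 1 (adjusted p = 0.0795). PLK1 passed as lower with array quality weights, as did 3069 of the 12466 tested genes. Whether AURKA and PLK1 differ from each other was not tested.

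In the spindle checkpoint, which senses unattached kinetochores, 1 of 5 genes fell and 4 did not pass. BUB3, the shared scaffold of the BUB proteins, fell by 0.47 (adjusted p = 0.0479) and did not pass after the correction (-0.25, adjusted p = 0.357) or without replicate 1 (-0.39, adjusted p = 0.104). BUB1B encodes BUBR1, an inhibitor of the anaphase ligase. It was at 2.42, 3.42 and 4.08 FPKM in the sh-CFB libraries and at 7.61, 6.99 and 4.86 in the sh-NC libraries. The groups stood apart, but sh-NC replicate 3 came close to sh-CFB replicate 3. The difference of -0.88 (SE 0.22, adjusted p = 0.0548) was just short of the threshold, and -0.60 (adjusted p = 0.016) after the correction. The kinase BUB1 had a difference of -0.45 (adjusted p = 0.11) and MAD2L1, the checkpoint protein MAD2, one of -0.40 (adjusted p = 0.323). TTK, the checkpoint kinase MPS1, was at 1.57, 2.84 and 2.38 FPKM against 3.63, 3.08 and 2.33, with overlapping groups and a difference of -0.36 (SE 0.23, adjusted p = 0.367). Without replicate 1 the differences of MAD2L1 and TTK were -0.05 and -0.04.

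Genes of anaphase control included the most abundant members and the only one whose sh-CFB libraries were all higher. ESPL1 encodes separase, which cuts cohesin. It was at 3.37, 4.82 and 3.66 FPKM in sh-CFB, against 7.75, 7.31 and 6.66 in sh-NC, without overlap. It fell by 0.81 (SE 0.16, adjusted p = 0.026), and the correction left -0.75 (adjusted p = 0.0113), while without replicate 1 it did not pass (-0.67, adjusted p = 0.0556). UBE2C, the ubiquitin-conjugating enzyme that starts chains for the anaphase-promoting complex (chr20:45812576-45816957, forward strand), was at 382, 296 and 290 FPKM in sh-CFB, against 220, 256 and 289 in sh-NC. The lowest sh-CFB library and the highest sh-NC library differed by very little. Its difference of 0.33 (SE 0.15, adjusted p = 0.205) did not pass, nor did it after the correction (0.50, adjusted p = 0.0698) or without replicate 1 (0.11, adjusted p = 0.581). It did pass with array quality weights, where 41 members fell and 1 rose. Over all 12466 tested genes those weights called 3069 lower and 1443 higher.

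CDC20, the activator of the anaphase-promoting complex, had the highest level of the 52 genes, with a mean over all libraries of 334 FPKM. It was at 403, 309 and 245 FPKM in sh-CFB, against 241, 348 and 456 in sh-NC. Both groups ran over nearly the same range. The difference was -0.11 (SE 0.26, adjusted p = 0.827), with 0.10 under median-of-ratios factors, 0.0675 under voom and -0.53 without replicate 1 (adjusted p = 0.11). PTTG1 encodes securin, the inhibitor of separase, and had a difference of -0.25 (adjusted p = 0.45) with overlapping groups, -0.52 without replicate 1 (adjusted p = 0.0761), -0.06 after the correction and -0.04 with median-of-ratios factors. Securin and CDC20 transcripts were thus measured at means from 102 to 348 FPKM in the 2 groups, and separase at 3.95 and 7.24.

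Of the 4 subunits of the chromosomal passenger complex, which corrects faulty attachments, 2 fell and 2 did not pass. INCENP, its scaffold, was at 6.25, 7.72 and 8.43 FPKM in sh-CFB, against 11.8, 11.7 and 10.7 in sh-NC, without overlap. It fell by 0.59 (SE 0.13, adjusted p = 0.0422), and by 0.60 after the correction (adjusted p = 0.0157), while without replicate 1 it did not pass (-0.45, adjusted p = 0.0738). CDCA8, the subunit borealin, fell by 0.51 (adjusted p = 0.0272), with -0.28 (adjusted p = 0.0774) after the correction. AURKB, the kinase subunit Aurora B, had a difference of -0.29 (adjusted p = 0.265). BIRC5, the subunit survivin, was at 65.4, 60.4 and 55.6 FPKM against 59.2, 70.5 and 87.6, overlapping between groups. Its difference was -0.24 (SE 0.15, adjusted p = 0.35) and -0.02 after the correction. Without replicate 1 the subunits lay close together, with CDCA8 at -0.54, AURKB at -0.49, INCENP at -0.45 and BIRC5 at -0.43, and only CDCA8 passed.

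Of 8 centromere and kinetochore genes 3 fell and 5 did not pass. In the NDC80 complex, which binds microtubules, 2 of 4 subunits fell. SPC25 (chr2:168834132-168913371, reverse strand) had the lowest fold change of the 52 genes, with 4.63, 4.98 and 4.48 FPKM in sh-CFB, against 10.4, 8.09 and 10.9 in sh-NC. The sh-CFB libraries were tightly grouped below all sh-NC libraries. The change was -0.98 (SE 0.14, adjusted p = 0.0131), or 1.97-fold lower, and -0.84 after the correction (adjusted p = 0.0161). NDC80, the subunit HEC1, fell by 0.83 from 6.93 ± 0.785 to 3.69 ± 0.521 FPKM (SD, n = 3 per group; adjusted p = 0.022). SPC24, the direct partner of SPC25, had a difference of -0.51 that did not pass (adjusted p = 0.0701), although its groups did not overlap. It passed without replicate 1 (-0.66, adjusted p = 0.0469) but not after the correction (-0.34, adjusted p = 0.143). NUF2, the partner of NDC80, was at 2.48, 4.37 and 3.27 FPKM against 5.13, 4.02 and 3.27 with overlap, and its difference was -0.27 (SE 0.23, adjusted p = 0.5), or 0.0557 without replicate 1. Whether the 4 fold changes differ from each other was not tested.

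At the centromere itself, CENPA, the histone H3 variant that marks it, fell by 0.54 from 18.8 ± 1.96 to 12.7 ± 0.435 FPKM (SD, n = 3 per group; adjusted p = 0.0284), with -0.31 (adjusted p = 0.0834) after the correction. CENPN, which reads the CENPA nucleosome, had a difference of -0.67 (adjusted p = 0.0674). The large outer proteins CENPF and CENPE, the second a kinesin, had differences of -0.41 (adjusted p = 0.459) and -0.32 (adjusted p = 0.542). CENPE was the least abundant tested member, at 0.399, 1.01 and 1.08 FPKM in sh-CFB, against 1.53, 1.27 and 0.654 in sh-NC, and its difference was 0.11 without replicate 1. Both CENPF and CENPE overlapped between groups, with sh-NC replicate 3 under 2 of the 3 sh-CFB libraries.

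**Figure D2:**
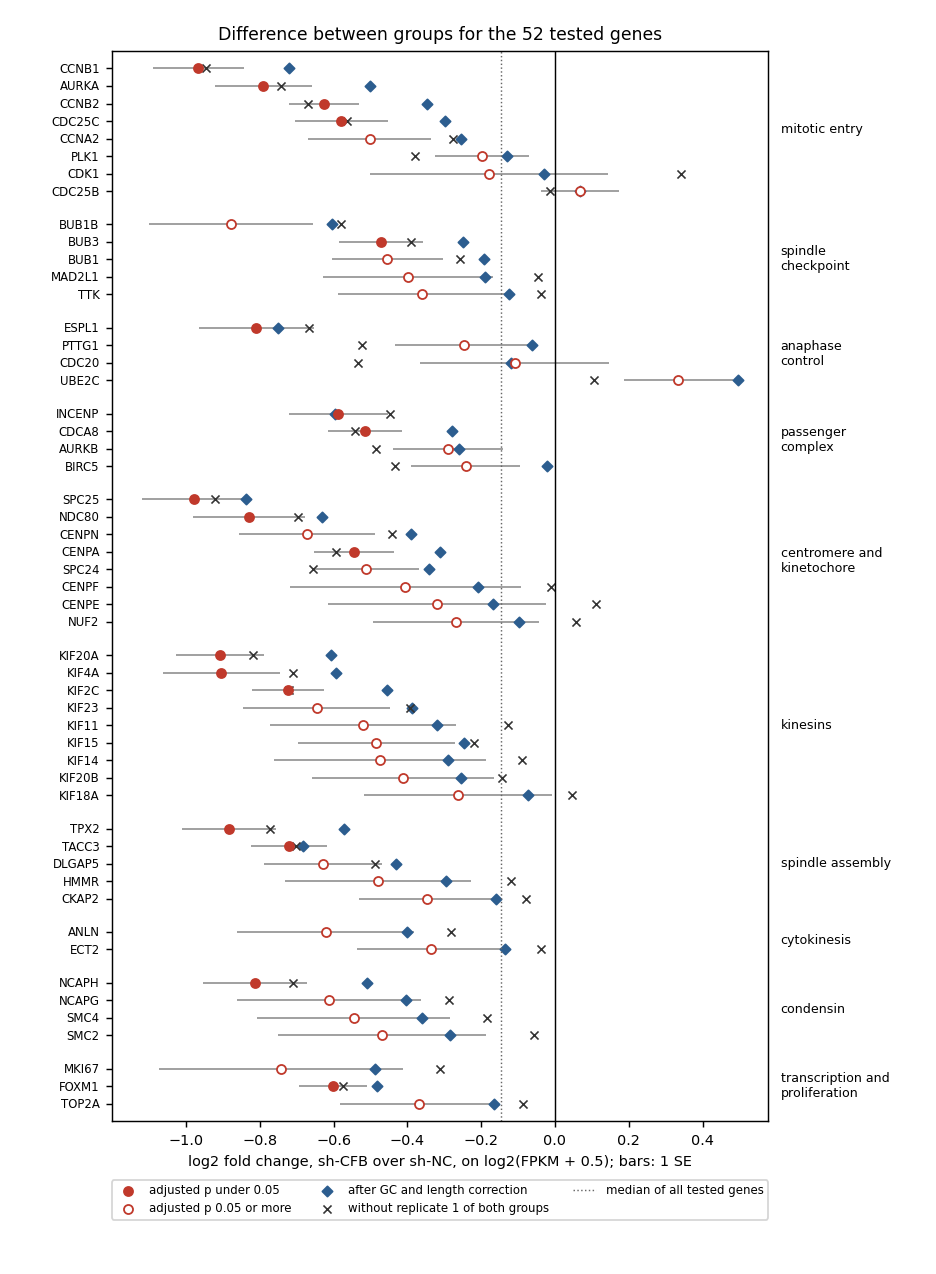
Log2 fold change of sh-CFB over sh-NC for the 52 tested genes by role (circles, bars 1 SE, filled where the adjusted p was under 0.05), with the value after the GC and length correction (diamonds) and without replicate 1 of both groups (crosses). SPC25 (-0.98) and CCNB1 (-0.97) lie farthest to the left in the main fit and UBE2C (0.33) farthest to the right, and the crosses of CDK1 and CDC20 lie far from their circles on opposite sides.

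Among 9 kinesins, motors that slide, move or take apart microtubules, 3 fell and 6 did not pass, with all 9 below 0. KIF20A, a motor of the midzone and cytokinesis (chr5:138178719-138187715, forward strand), was at 10.03, 12.7 and 12.6 FPKM in sh-CFB, against 21.9, 23.5 and 21.8 in sh-NC. No sh-CFB library came near an sh-NC library. Its change of -0.91 (SE 0.12, adjusted p = 0.0115) was -0.61 after the correction (adjusted p = 0.00887) and -0.82 without replicate 1 (adjusted p = 0.0131). KIF4A, a chromosome-bound motor that sets midzone length, fell by 0.90 (adjusted p = 0.0203) from 14.0 ± 0.887 to 7.33 ± 1.51 FPKM (SD, n = 3 per group). KIF2C, the microtubule depolymerase MCAK, fell by 0.72 (adjusted p = 0.012) from 36.4 ± 2.23 to 21.9 ± 1.41 FPKM.

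The other kinesins were lower in level and wider in spread. KIF23, a subunit of centralspindlin, had a difference of -0.65 (adjusted p = 0.0927), and -0.39 after the correction (adjusted p = 0.0381). KIF11, the motor that pushes spindle poles apart, had one of -0.52 (adjusted p = 0.237). KIF15, which can take its place, KIF14 and KIF20B, both of cytokinesis, had differences of -0.48, -0.47 and -0.41 with adjusted p from 0.199 to 0.346. KIF18A, which damps chromosome movement, was at 1.38, 2.18 and 2.98 FPKM against 2.96, 2.98 and 2.01, so sh-NC replicate 3 lay under 2 of the sh-CFB libraries. The difference was -0.26 (SE 0.26, adjusted p = 0.561), or 0.0469 without replicate 1.

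Spindle assembly factors held 2 genes that fell among 5 tested. TPX2, which activates Aurora A and nucleates microtubules (chr20:31739271-31801805, forward strand), was at 38.8, 51.5 and 51.6 FPKM in sh-CFB, against 84.2, 91.6 and 85.2 in sh-NC, far apart in every library. Its change was -0.88 (SE 0.13, adjusted p = 0.0131), with -0.57 after the correction (adjusted p = 0.0138). TACC3, which links microtubules in kinetochore fibres, fell by 0.72 (adjusted p = 0.0131) and, after the correction, by 0.68 (adjusted p = 0.00692). DLGAP5, a spindle fibre protein, had a difference of -0.63 (adjusted p = 0.0555) and HMMR, a spindle pole protein, one of -0.48 (adjusted p = 0.276). DLGAP5 passed after the correction (-0.43, adjusted p = 0.0365) but not without replicate 1 (-0.49, adjusted p = 0.12). CKAP2, a microtubule stabiliser, was at 5.33, 8.58 and 8.13 FPKM against 10.3, 9.11 and 8.59. Its groups did not overlap, by a margin that is small beside the spread, and the difference of -0.35 (SE 0.18) did not pass (adjusted p = 0.277).

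NUSAP1, a spindle protein, and PRC1, the bundler of midzone microtubules, were the 2 genes below the filter. NUSAP1 was at 0.127, 0.0498 and 0.123 FPKM in sh-CFB, against 0.0632, 0.111 and 0.194 in sh-NC, from 6 to 23 reads per library. PRC1 was at 0.0552, 0.103 and 0.108 against 0.147, 0.127 and 0.104, from 8 to 32 reads. Groups overlapped in both genes, with two-sided exact permutation p of 0.7 and 0.2 (the smallest possible is 0.1). The annotation places a protein-coding gene without a symbol (ENSG00000284946, mean 0.224 FPKM) on the same strand over PRC1, and a sense intronic gene inside NUSAP1. The part of such overlaps in these low values was not tested.

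In cytokinesis the 2 tested genes did not pass. ANLN, anillin of the contractile ring, was at 4.52, 7.65 and 7.62 FPKM in sh-CFB, against 11.9, 11.5 and 7.65 in sh-NC. The groups met at sh-CFB replicate 2 and sh-NC replicate 3, without crossing. The difference of -0.62 (SE 0.24, adjusted p = 0.154) passed only after the correction, as -0.40 (adjusted p = 0.0427), and with array quality weights. ECT2, the exchange factor that activates RhoA at the furrow, was at 6.32, 8.98 and 9.31 FPKM against 12.5, 11.0 and 8.05 and overlapped, with a difference of -0.34 (SE 0.20, adjusted p = 0.339).

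Of 4 condensin genes 1 fell. NCAPH, the kleisin of condensin I, was at 2.84, 3.28 and 3.80 FPKM in sh-CFB, against 6.27, 6.35 and 5.85 in sh-NC, without overlap. It fell by 0.81 (SE 0.14, adjusted p = 0.0194), and by 0.51 after the correction (adjusted p = 0.0125). NCAPG, a HEAT-repeat subunit of the same complex, and SMC4, an ATPase of both condensins, had differences of -0.61 (adjusted p = 0.176) and -0.55 (adjusted p = 0.233). SMC2, the other ATPase, was at 2.12, 3.27 and 4.17 FPKM against 5.93, 4.88 and 3.04, with sh-NC replicate 3 inside the sh-CFB range. Its difference was -0.47 (SE 0.28, adjusted p = 0.339) and, without replicate 1, -0.06.

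FOXM1, the forkhead factor that drives G2 genes (chr12:2857681-2877155, reverse strand), fell from 28.0 ± 1.68 to 18.3 ± 0.503 FPKM (SD, n = 3 per group), a change of -0.60 (SE 0.09, adjusted p = 0.0138), with -0.48 after the correction (adjusted p = 0.0128). It shares its locus with RHNO1 on the opposite strand (mean 17.4 FPKM). MKI67, the proliferation antigen Ki-67 on the chromosome surface, was at 4.40, 8.44 and 6.01 FPKM in sh-CFB, against 14.4, 12.9 and 6.21 in sh-NC. Replicate 3 of sh-NC lay among the sh-CFB libraries, and the difference of -0.74 (SE 0.33, adjusted p = 0.206) did not pass. TOP2A, the topoisomerase that untangles sister chromatids, was at 9.10, 13.5 and 14.4 FPKM against 17.8, 18.2 and 12.1 and overlapped, with a difference of -0.37 (SE 0.21, adjusted p = 0.324). MKI67 and TOP2A, both used as markers of proliferating cells, thus gave no call in the main test. With array quality weights both passed as lower, as did 3069 of the 12466 tested genes. Without replicate 1 their differences were -0.31 and -0.09.

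The order of the libraries within a group differed with the GC content of the gene. GC content of the longest transcript had a median of 42.8% over the 52 genes and 49.3% over all tested genes. With classes set after the values were seen, 23 genes had a GC content under 42%, and in 22 of them sh-CFB replicate 1 was the lowest of all 6 libraries and in 22 sh-NC replicate 3 was the lowest of its group. Of 13 genes at 50% or more, sh-CFB replicate 1 was the highest of its group in 7 and sh-NC replicate 3 the highest of its group in 9, as in CDC20, AURKB and BIRC5. The median deviation from the gene mean in sh-CFB replicate 1 was -0.60 on the log2 scale in the first class and -0.15 in the last. In sh-NC replicate 3 these were -0.15 and 0.39.

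**Figure D3:**
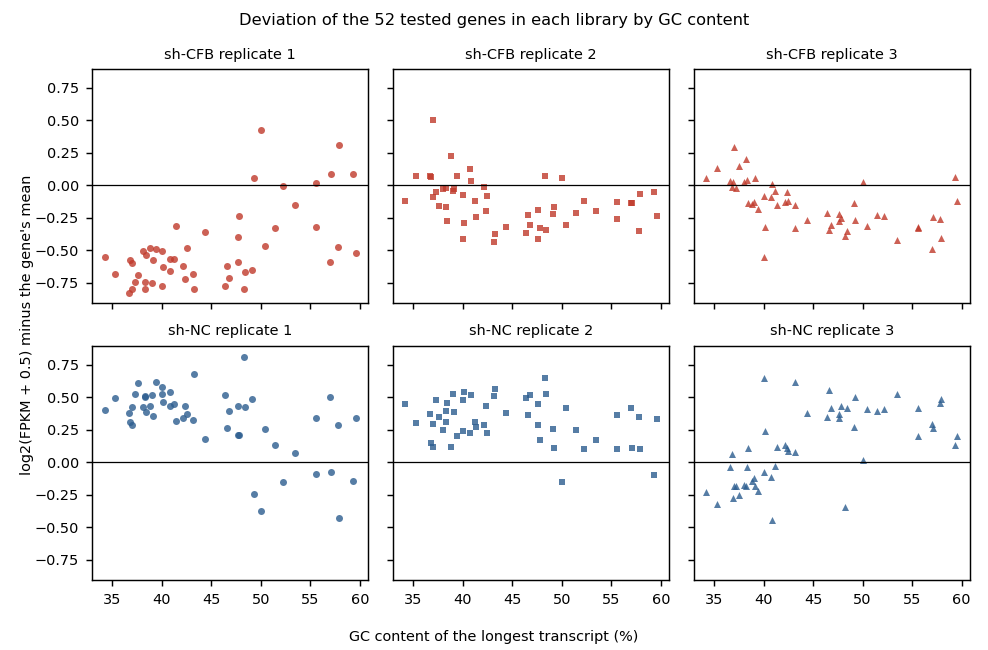
Deviation of log2(FPKM + 0.5) from the gene's mean over the 6 libraries (vertical) against GC content of the longest transcript in percent (horizontal), 1 point per tested gene and 1 panel per library. Points climb to the right in sh-CFB replicate 1 (Spearman 0.56) and sh-NC replicate 3 (0.68) and drop to the right in sh-CFB replicate 3 (-0.63) and sh-NC replicate 1 (-0.52).

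Errors were wider in genes of low GC content and in longer genes. Over the 52 genes, which share libraries and are not independent, Spearman correlations with GC were -0.65 for the SE of the fold change and -0.13 for the fold change itself. The SE also had a Spearman correlation of 0.43 with gene length, as recovered from the FPKM values and not from the longest transcript. The median SE was 0.24 in genes under 42% GC, 0.15 in the 16 genes from 42% to 50% and 0.13 in those at 50% or more, and the numbers called were 3, 9 and 6. Without replicate 1 of both groups the median fold changes of the 3 classes were -0.09, -0.59 and -0.53, and with the correction -0.25, -0.44 and -0.28. The part of GC content in the calls beyond these alternatives was not tested. Overlap with other genes is a further limit of the levels: 13 of the 54 genes share bases with an annotated gene of at least 0.5 FPKM, 2 of them (CENPA with SLC35F6, KIF15 with TMEM42) on the same strand, and the strand setting of the counting is not given in the sources used here.

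Other genes of mitosis, from a list of 111 fixed by role, are given by the same test. Of 106 tested, 22 fell (20.8%, against 5.71% of all tested genes), 0 rose and 84 did not pass. Their median was -0.40, or -0.25 relative to the median of all tested genes (-0.15). After the GC and length correction 26 fell, against 7.14% of all genes, and 1 rose. In the outer kinetochore and checkpoint 3 of 15 fell, among them ZWINT, which docks the checkpoint at the kinetochore (-1.11, adjusted p = 0.0088; from 23.2 ± 2.69 to 10.5 ± 1.11 FPKM, SD, n = 3 per group), and TRIP13, the ATPase that takes MAD2 complexes apart (-0.89, adjusted p = 0.0111). Condensin subunits outside the 54 fell in 2 of 4, NCAPD3 of condensin II (-1.01, adjusted p = 0.0208) and NCAPD2 of condensin I (-0.61, adjusted p = 0.0165). Spindle, kinesin and centrosome genes fell in 7 of 23, led by TUBG1, gamma-tubulin (-0.83, adjusted p = 0.0135), and SPAG5, astrin (-0.76, adjusted p = 0.0273).

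Of 17 genes of the anaphase-promoting complex and its regulators 3 fell, led by its subunits ANAPC7 (-0.91, adjusted p = 0.0194) and ANAPC5 (-0.61, adjusted p = 0.0426). ANAPC5 did not pass after the GC and length correction (-0.35, adjusted p = 0.104) or without replicate 1 (-0.47, adjusted p = 0.0763). Of 11 entry regulators 2 fell, CKS1B, which binds cyclin-dependent kinases (-0.79, adjusted p = 0.0115), and CCNF, an F-box cyclin (-0.57, adjusted p = 0.0445). Of 17 genes of the constitutive centromere network and CENPA loading 3 fell, led by CENPO (-0.93, adjusted p = 0.0332) and MIS18A, a CENPA loading factor (-0.67, adjusted p = 0.0303). Without replicate 1 of both groups 0 genes of this role fell, with CENPO at -0.66 (adjusted p = 0.0585) and MIS18A at -0.51 (adjusted p = 0.0517). Cohesin, which holds sister chromatids together, had 1 of 13 fall (7.69%, near the 5.71% of all tested genes), SMC1A (-1.07, adjusted p = 0.0376), and cytokinesis 1 of 6, RACGAP1, the centralspindlin partner of KIF23 (-0.79, adjusted p = 0.0233).

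DNA replication genes, which act before mitosis, are given beside them on the same scale. Of 34 genes 26 fell (76.5%, against 5.71% of all tested genes) and 8 did not pass. Their median was -0.81, while that of all tested genes was -0.15. In 31 every sh-CFB library lay below every sh-NC library, against 23.6% of all tested genes. The flap endonuclease FEN1 fell by 1.61 (adjusted p = 0.00613) and MCM3, a subunit of the replicative helicase, by 1.55 (adjusted p = 0.00669), while the lowest of the 52 mitotic genes stood at -0.98. TTTGAA was found in 1 of 30 promoters of this list (3.3%) and in 32 of 96 of the other mitosis list (33.3%). No test was made of the difference between these lists and the 52 genes.

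**Figure D4:**
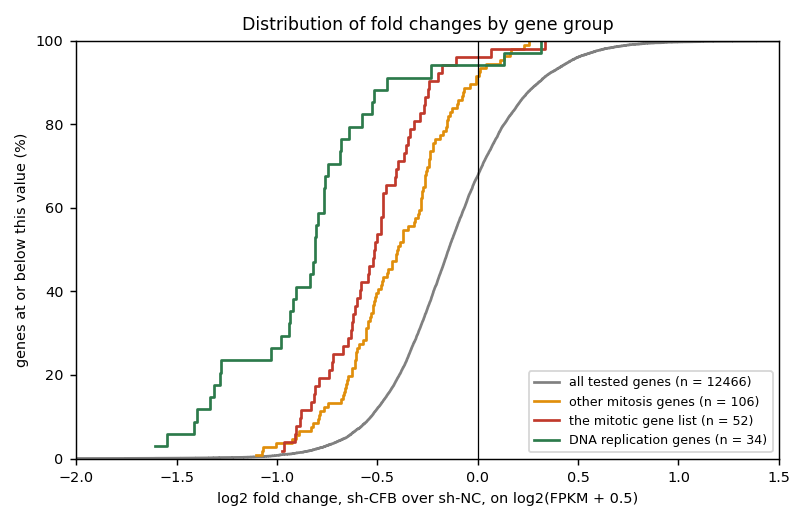
Cumulative share of genes in percent (vertical) at or below each log2 fold change of sh-CFB over sh-NC (horizontal) for all 12466 tested genes, the 106 other mitosis genes, the 52 mitotic genes and 34 DNA replication genes, drawn from -2 to 1.5. Over most of its range the curve of the 52 genes lies left of all tested genes (medians -0.51 and -0.15) and right of the replication genes (-0.81).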

How the data were processed

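Values are FPKM in 1 column per library of a single table, made by the authors and deposited without pooling. The submitters' processing notes list STAR 2.7.3a, featureCounts 2.0.1, Trimmomatic 0.39, FastQC 0.11.9 and the build GRCh38. Annotation release, strand setting and the formula for FPKM: not given in the sources used here. Rows were matched to symbols by Ensembl ID. GC content came from the longest GENCODE 29 transcript. Because whole reads lie behind FPKM, library totals, gene lengths and reads were recovered, whole within 0.02 for 99.97% of genes, with 87.5% of lengths within 10% of the annotated exons. Genes whose mean FPKM reached 0.5 were tested as log2(FPKM + 0.5) with limma 3.58.1 in R 4.3.3 (intensity trend, Benjamini-Hochberg at 0.05 over all tested genes), a scale that understates changes of low genes. The method was tested on simulated data that held no GC trend between libraries, unlike the real ones. Members, lists and settings were chosen with earlier results of these data known. All 54 members are named. Values per library are given for the lowest and highest fold change in each role, for CCNB1, CDK1 and PLK1, and for a few more genes added after their values were seen. From the other lists up to 2 called genes per role and direction are named. Python 3.11.15, numpy 2.4.6, pandas 2.3.3 and matplotlib 3.10.9 did the rest. Alternatives are described at the end.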

Additional observations from a re-analysis of the deposited data

How the results depend on the processing

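Counts of called genes are given for all genes, the 52 mitotic genes, other mitosis genes and replication genes, in that order; the main counts were 929, 18, 22 and 26. Median-of-ratios factors gave 206, 4, 5 and 12. Without a filter they were 324, 9, 6 and 20, and with voom on recovered reads 439, 8, 8 and 20. Array quality weights, computed gene by gene because the default did not converge, gave 4512, 42, 59 and 30. The GC and length correction gave 1593 in all and a member median of -0.30. The share of higher calls among all genes was 23.4% in the main test, 33.0% with median-of-ratios factors, 42.2% with quantile normalization, 36.4% with voom and 44.1% after the correction. Leaving out each library in turn or replicate 1 of both groups gave 20 to 699, 0 to 15, 0 to 18 and 6 to 24, with lowest counts without sh-NC replicate 2. A filter at a mean FPKM of 2 left 6 members untested and no filter left 0. Rescaling to equal totals and other pseudocounts kept the member count within 1.5 times.

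The replicate block called 0 genes in all 4 sets, also with the GC and length correction (member median -0.30), with 24 and 27 of the members lower at an unadjusted p under 0.05. The labels do not say whether equal numbers pair the samples. Deviations of same-numbered libraries from their group means correlated at -0.54, 0.07 and -0.45. These deviations also carry the GC trends of the libraries, so they cannot settle the pairing.

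Signs turned only in members that did not pass. With median-of-ratios factors CDK1 was at 0.015, CDC20 at 0.0964 and PLK1 at 0.0047, and CDK1 was at 0.2012 with array weights and CDC20 at 0.0675 with voom. Leaving out libraries gave ranges of -0.476 to 0.3411 for CDK1, -0.014 to 0.1523 for CDC25B, -0.5327 to 0.109 for CDC20, -0.5581 to 0.1109 for CENPE, -0.4476 to 0.0557 for NUF2, -0.4761 to 0.0469 for KIF18A. With the correction and without replicate 1, a setting chosen after seeing the data, CDK1 was at 0.2782, CDC25B at -0.0175 and NUF2 at 0.0202. The causes were not tested. Tested members had 86 or more reads in each library (86 in KIF15), while NUSAP1 and PRC1 had at most 32.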
